A study of Mus musculus with 16 samples.

Results

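The 43 mitosis and G2/M genes described here encode the proteins that take a cell from the end of DNA replication through division. They were chosen by name, as a list of gene symbols, with earlier results of these data known. All 43 were found among the 16039 genes measured in cells of the mouse transverse colon. In dividing cells most of these genes are switched on together late in the cell cycle, and some of their products are broken down as the cell leaves mitosis. Cyclin A2, cyclins B1 and B2 and the kinase Cdk1 drive entry into mitosis, the spindle and kinetochore proteins move the chromosomes, the checkpoint proteins hold back anaphase until every chromosome is attached, and the cytokinesis proteins split the cell. In the colon such cells lie in the lower crypt, mostly as transit-amplifying cells, the fast-dividing progeny of the stem cells.

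Dissociated cells from 16 female C57Bl/6J mice of 7 weeks were profiled by single-cell RNA-seq, which counts unique molecular identifiers (UMIs) for each gene in each cell. The SZN-1326-p mice drank 4% dextran sulfate sodium (DSS), a chemical that injures the colon epithelium, and on day 4 of DSS were dosed with SZN-1326-p (10 mg/kg), a FZD-targeted Wnt activator. The anti-GFP mice drank the same DSS and received an anti-GFP antibody on day 4, and the uninjured mice served as the untreated level. Differences called with DSS below are anti-GFP minus uninjured, in which DSS and the anti-GFP antibody cannot be told apart. Tissue was taken 24 h after dosing (day 5) from 3 SZN-1326-p, 3 anti-GFP and 2 uninjured mice, and at 48 h (day 6) from the same numbers of other mice, each mouse being 1 replicate. Levels below are normalized UMIs per cell, that is UMIs divided by the size factor of the cell, averaged over the cells of a mouse. Differences are on the scale log2(level + 0.01) ± standard error from a limma fit of all 6 groups, with Benjamini-Hochberg adjusted p-values over all genes tested.

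The start regions of the genes are shown first, because 2 short DNA words are known to recur in promoters of genes expressed in G2 and mitosis: the CHR element (TTTGAA or TTCGAA), bound by the DREAM and MuvB complexes, and the CCAAT box, bound by NF-Y. RefSeq gave a 300-base window (250 bases before and 50 from the gene start, GRCm38.p6) for 37 of the 43 genes. CHR letters were present on either strand in 28 of the 37 windows (75.7%), and CCAAT letters on either strand in 28 (75.7%). Of 12048 windows of genes in the matrix, 14.5% held the CHR letters, 38.1% the CCAAT letters and 5.94% both, and 25 of the 37 members held both (67.6%). Neither motif contains the other, though neighbouring matches can share a base. Windows of Cdk1 (chr10:69352863-69353162, minus strand), Ccnb2 (chr9:70421505-70421804, minus strand), Cdc20 (chr4:118437294-118437593, minus strand) and Hmmr (chr11:40733388-40733687, minus strand) are printed as examples with both, since each of these genes recurs in the comparisons below. The window of Pttg1 (chr11:43425932-43426231, minus strand) is printed as 1 of 6 members with neither, with Birc5, Mad2l1, Nuf2, Nusap1 and Tacc3, and because its levels differed from those of the other members. The GENCODE annotation puts the Pttg1 start further upstream, at 43426251, so this window lies inside that gene span. The bases before that start were not searched. All are written 5′ to 3′ along the gene's strand, with CHR letters (TTTGAA here) and CCAAT letters (ATTGG when read on the other strand) in capitals. A match is a description of the letters and not a measured binding site.
Cdk1: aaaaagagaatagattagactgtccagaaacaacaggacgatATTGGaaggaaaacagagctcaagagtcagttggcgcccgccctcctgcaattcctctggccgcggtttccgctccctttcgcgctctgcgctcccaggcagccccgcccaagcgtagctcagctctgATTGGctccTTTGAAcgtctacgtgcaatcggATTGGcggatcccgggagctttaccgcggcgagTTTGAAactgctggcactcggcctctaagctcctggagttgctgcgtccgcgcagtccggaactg
Ccnb2: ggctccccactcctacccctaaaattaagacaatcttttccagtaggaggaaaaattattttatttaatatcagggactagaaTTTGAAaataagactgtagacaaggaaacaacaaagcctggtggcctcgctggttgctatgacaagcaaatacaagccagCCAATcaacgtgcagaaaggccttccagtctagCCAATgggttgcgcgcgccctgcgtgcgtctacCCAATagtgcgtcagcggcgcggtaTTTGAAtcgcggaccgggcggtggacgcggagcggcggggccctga
Cdc20: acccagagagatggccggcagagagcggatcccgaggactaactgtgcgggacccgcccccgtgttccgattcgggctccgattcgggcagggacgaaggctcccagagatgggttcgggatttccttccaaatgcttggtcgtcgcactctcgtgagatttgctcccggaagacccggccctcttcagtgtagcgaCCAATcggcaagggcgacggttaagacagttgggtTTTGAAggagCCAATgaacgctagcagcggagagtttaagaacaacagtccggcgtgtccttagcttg
Hmmr: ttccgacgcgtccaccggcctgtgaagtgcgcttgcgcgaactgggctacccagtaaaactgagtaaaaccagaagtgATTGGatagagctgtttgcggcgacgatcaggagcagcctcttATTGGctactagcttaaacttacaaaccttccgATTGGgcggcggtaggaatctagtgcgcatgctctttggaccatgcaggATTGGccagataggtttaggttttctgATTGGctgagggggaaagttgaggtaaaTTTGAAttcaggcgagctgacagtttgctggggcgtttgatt
Pttg1: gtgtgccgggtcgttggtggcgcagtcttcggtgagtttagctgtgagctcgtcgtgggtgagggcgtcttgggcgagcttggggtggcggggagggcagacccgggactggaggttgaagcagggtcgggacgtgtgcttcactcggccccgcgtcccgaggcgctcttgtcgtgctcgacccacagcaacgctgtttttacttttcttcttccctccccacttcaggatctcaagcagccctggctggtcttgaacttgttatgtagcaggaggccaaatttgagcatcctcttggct

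The matrix held 22717 cells of 46 annotated types, with 936 to 2033 cells and 9616512 to 21335421 UMIs per mouse. Several libraries stood apart. SZN-1326-p mouse 1, anti-GFP mice 1 and 2 and uninjured mouse 1, all of 24 h, were shifted towards long transcripts in their UMIs. This shift was measured in fibroblasts, as the log2 level of genes with long transcripts minus that of genes with short ones, cut at 0.2. Transit-amplifying cells of these libraries were annotated mostly as TA1 (62.8% to 97.2%), against 6.82% to 52.3% in the other 12 mice. Results on these cells below therefore join TA1 and TA2, a choice made after the data were seen, and call them TA cells. The median mitochondrial share of UMIs over all cells was 6.54% to 24.1% in the SZN-1326-p mice, 5.06% to 11.6% in the anti-GFP mice and 19.2% to 26.1% in the uninjured mice, and was highest among mice on DSS in mouse 2 of 24 h and mouse 3 of 48 h, both given SZN-1326-p. Epithelial cells were 58.4% and 54.9% of the cells of these 2 mice, also the highest among mice on DSS. They were 56.8% to 73.3% in the uninjured mice. Whether the mitochondrial share over all cells follows the cell makeup was not tested. Of 22652 distinct cell barcodes, 64 were found in more than 1 library.

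TA cells carried most of the signal. They were 9.88% of all cells (2244 cells) and held a median of 64.2% of a member's UMIs, from 8.13% for Pttg1 to 72.0%. Of the 43 genes, 37 had their highest mean level in TA cells among the types of at least 100 cells. Levels of a cell type are means over all its cells, pooled over mice and arms of different cell numbers. With every mouse of at least 10 cells weighted equally the count was again 37. Mki67, the proliferation marker that coats mitotic chromosomes, averaged 4.50 normalized UMIs per TA cell, against 1.53 in Plasma_IgA cells, the next type, of whose 214 cells 139 were uninjured. With mice weighted equally these levels were 4.12 and 1.595 (16 and 5 mice). Top2a, the topoisomerase that untangles sister chromatids, averaged 3.16 per TA cell, against 0.890 in Tcell2. Cenpf, a kinetochore protein, averaged 2.32 per TA cell, against 0.451 in AltEnteroPC, an epithelial type of the annotation. How the types were called is not given in the sources used here, and the members may have been among the genes used, so these levels describe the types and carry no test.

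A stricter view counted cells with UMIs of at least 3 of 42 members (all but Bub3, which many cells express whether or not they divide) after every cell was thinned to 2000 UMIs. This share was 65.5% in TA cells, 12.9% in AltEnteroPC, 8.44% in BasalGoblet and 6.96% in StemCell. Some types outside the epithelium stood near these: TcellCD8_NK at 8.02%, Plasma_IgA at 8.02%, Dendritic at 7.06%, Macrophage at 5.15% and Glia2 at 7.27% (of 55 cells). The share was 2.98% in EnteroPrecur, 0.655% in Enterocyte and 0.200% in InjuryCryptFB1, a fibroblast type. Other fibroblast types reached up to 1.93% (BaseCryptFB2), and the background of free RNA was not measured. Without thinning the same shares were 86.2% in TA cells, 59.0% in AltEnteroPC, 38.1% in StemCell and 12.8% in InjuryCryptFB1. Median depths were 11394 UMIs in TA cells, 16622 in AltEnteroPC, 8225 in StemCell and 10833 in InjuryCryptFB1. Tcell2 stood at 25.0% after thinning, but its median depth was 1296 UMIs, so that most of its cells were left out.

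**Figure D1:**
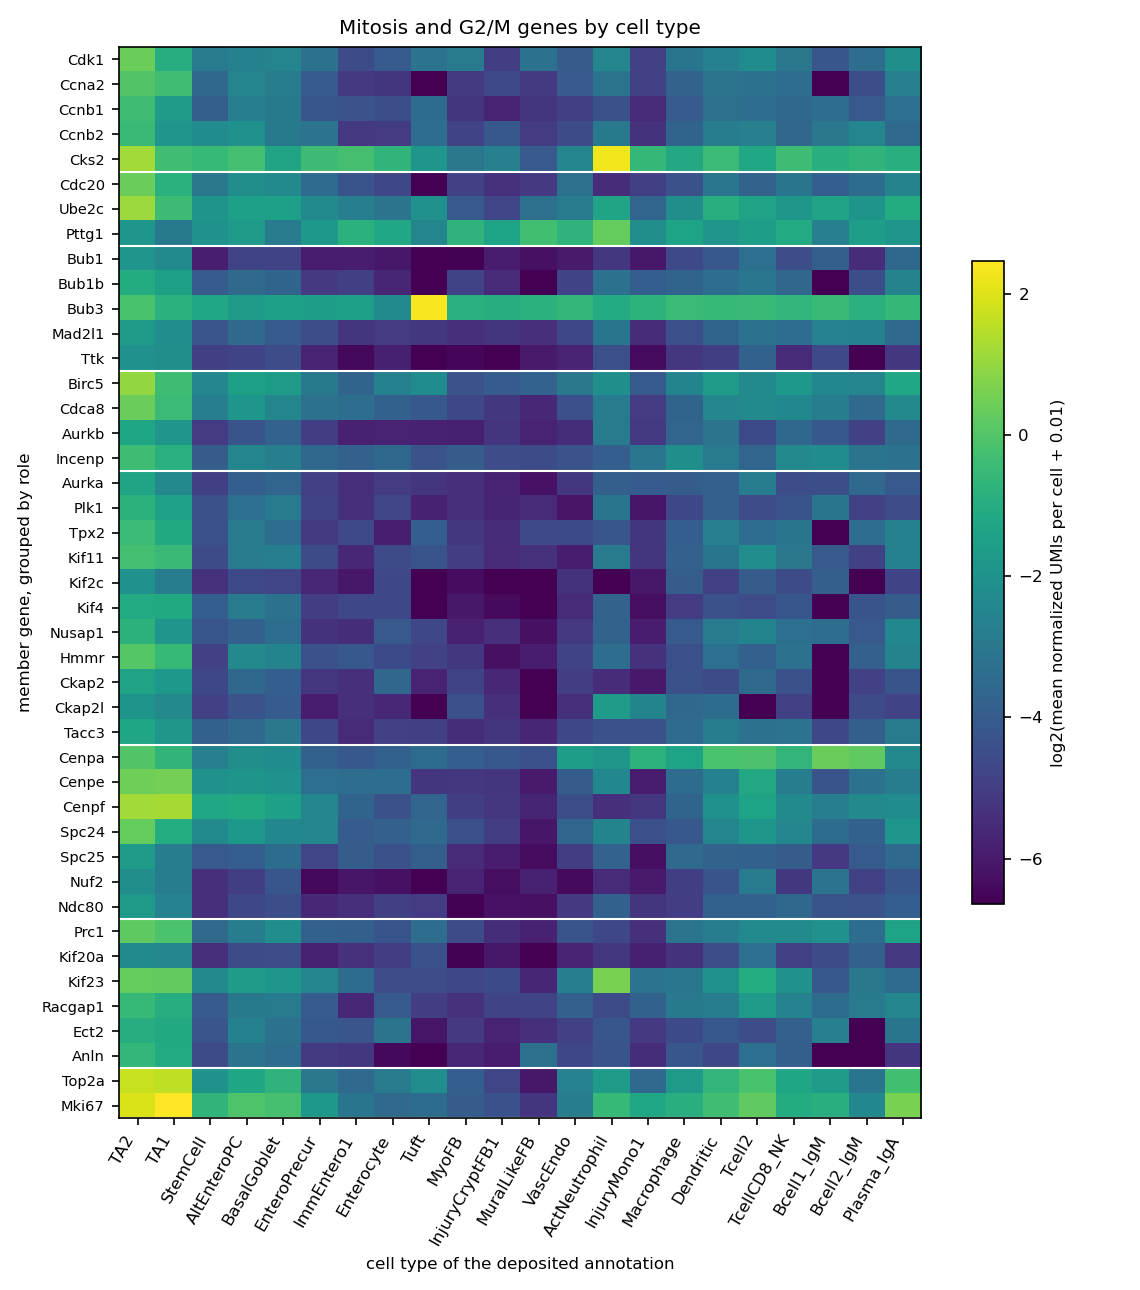
Mean level of the 43 genes (rows, grouped by role) in 22 annotated cell types (columns), as log2(normalized UMIs per cell + 0.01). Of the 43 genes, 37 are highest in TA1 and TA2 joined, and Bub3 in Tuft, Cks2, Kif23, Ckap2l and Pttg1 in ActNeutrophil and Cenpa in B cells stand out from this pattern. The Ckap2l level in ActNeutrophil rests on 32 UMIs.

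For 6 of the genes another type had a higher level. Bub3, a checkpoint protein that also serves outside mitosis, averaged 5.14 normalized UMIs per tuft cell (75.3% of 158 tuft cells held a UMI of it), against 0.778 per TA cell. In the 7 mice with at least 10 tuft cells, the Bub3 level in these cells ran from 3.76 to 8.05 with a median of 4.60. The other 42 members together summed to 2.24 in tuft cells, against 35.8 in TA cells, so that tuft cells were high in Bub3 and low in the rest. Cks2, the small subunit that helps Cdk1 find its substrates, averaged 4.75 in ActNeutrophil cells, against 1.76 in TA cells. Kif23, a kinesin of the midzone at cytokinesis, averaged 1.55 there, against 1.21 in TA cells. Ckap2l, a spindle protein, averaged 0.317 there, against 0.231 in TA cells. This Ckap2l level rested on 32 UMIs in 25 of 590 ActNeutrophil cells, and ran from 0 to 0.927 over 12 mice.

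The ActNeutrophil cells are shallow, with a median of 2360 UMIs against 11394 in TA cells, and a normalized level weighs each of their UMIs more. Thinned to the same 2000 UMIs, 30.8% of ActNeutrophil cells held a UMI of Cks2, against 27.3% of TA cells, 5.77% of Enterocyte cells and 3.15% of MyoFB cells. Kif23 was held by 11.8% of ActNeutrophil cells, against 18.1% of TA cells and 0.524% of Enterocyte cells. Ccnb1 and Cdk1 were held by 0.482% and 0.964% of ActNeutrophil cells, Birc5 by 1.69%, Top2a by 1.93% and Mki67 by 4.58%. Mki67 was held by 47.6% of TA cells, 1.18% of Enterocyte cells and 1.13% of MyoFB cells. UMIs of at least 3 of the 42 members were found in 4.34% of ActNeutrophil cells, against 65.5% of TA cells and 0.655% of Enterocyte cells. Cks2 in ActNeutrophil cells was above its TA mean of 1.76 in each of the 12 mice with at least 10 such cells, with a lowest level of 1.85 and a highest of 7.24. This type was not tested between arms on its own, and 2 of its 590 cells came from uninjured mice.

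Pttg1, the securin that guards the cohesin-cleaving enzyme separase until anaphase, was the least tied to TA cells, at rank 33 of the types compared. It averaged 0.211 normalized UMIs per TA cell (22.5% of cells held a UMI), against 0.816 in MuralLikeFB, 0.603 in MyoFB and 1.22 in ActNeutrophil. After thinning, 3.46% of TA cells held a UMI of Pttg1, against 11.3% of MyoFB and 10.6% of ActNeutrophil cells. In MyoFB cells its level ran from 0.233 to 0.806 over the 16 mice, and the TA level from 0.0926 to 0.344. Cenpa, the histone variant that marks centromeres, averaged 1.33 in Bcell1_IgM and 1.18 in Bcell2_IgM cells, against 0.848 in TA cells. Its level rested on 29 and 73 UMIs in those B cells.

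DSS injury with the anti-GFP antibody came with lower levels of these genes per TA cell than in uninjured mice. Of the 43 genes, 35 fell past the test and none rose, where 4.93% of the 10900 genes tested in TA cells fell and 6.7% rose. All 43 log2 differences were below 0, with a median of -1.0, against a median of 0.04 over all genes tested. In 29 of the 43 genes all 6 anti-GFP mice were below all 4 uninjured mice, as they were in 3.24% of all genes tested, and in none were they all above, against 4.39%. The 8 genes that did not pass were Pttg1, Bub1b, Mad2l1, Aurka, Plk1, Kif20a, Kif23 and Mki67. The count stayed between 29 and 39 with each mouse left out in turn, and between 31 and 39 under the other settings tried, all with TA1 and TA2 joined. In TA1 alone no member fell past the test, and Cdk1, Ccnb2, Cks2 and Cdca8 had differences above 0. TA1 held as few as 6 cells in a mouse, and TA2 had too few cells in some mice to be fitted alone. The cause of this difference was not tested.

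**Figure D2:**
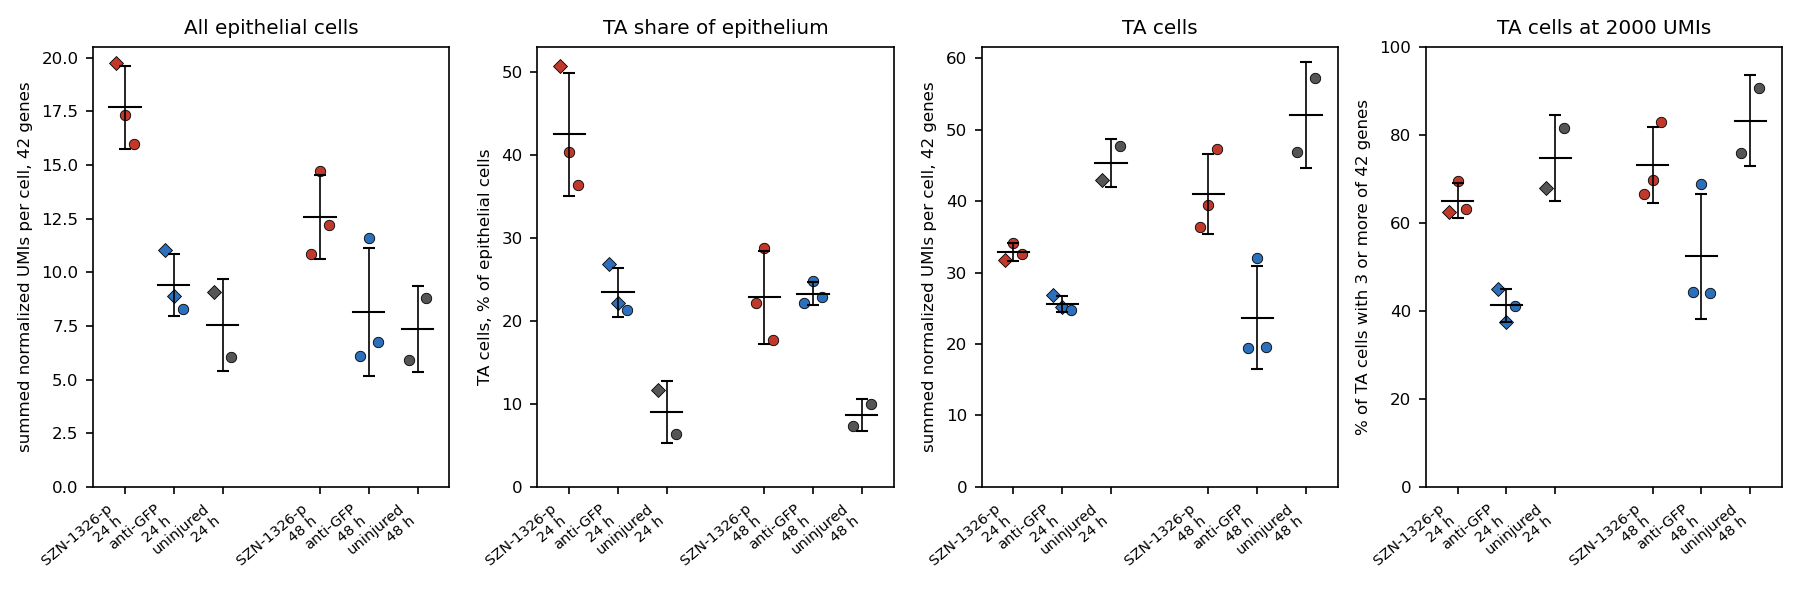
Points are mice (diamonds, the 4 libraries with more UMIs of long transcripts), long lines are means and bars are SD (n = 3, or 2 for uninjured), by group. From left to right: the summed level of 42 members per epithelial cell, the TA share of epithelial cells, the summed level per TA cell, and the share of TA cells with UMIs of 3 or more members at 2000 UMIs. Anti-GFP mice are above uninjured mice in the TA share and below them in the summed level per TA cell.

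At the same time TA cells made up more of the epithelium: 21.3% to 26.8% in the anti-GFP mice, against 6.41% to 11.6% in the uninjured mice. The type may rest on genes such as these, so this share carries no test, and whether the line between TA cells and their neighbours was drawn at the same place in each arm was not tested. Over all epithelial cells the summed level of 42 members was 8.78 ± 2.21 normalized UMIs per cell in the anti-GFP mice and 7.45 ± 1.70 in the uninjured mice (SD, n = 6 and 4). Per TA cell it was 24.6 ± 4.76 in the anti-GFP mice and 48.7 ± 6.09 in the uninjured mice. The share of TA cells with UMIs of at least 3 members was 45.1%, 37.5% and 41.2% in the anti-GFP mice at 24 h and 44.2%, 68.8% and 44.2% at 48 h. In the uninjured mice it was 67.9% and 81.7% at 24 h and 75.9% and 90.7% at 48 h, so that 1 anti-GFP mouse, mouse 2 at 48 h, lay within the uninjured range. Among TA cells past that count the summed level was 39.1 to 58.3 in the anti-GFP mice, against 58.4 to 63.3 in the uninjured mice, so that the ranges met without overlap.

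Median depth of TA cells at 24 h was 9084 to 11844 UMIs in the anti-GFP mice and 7804 to 13612 in the uninjured mice. At 48 h it was 15465 to 16550 UMIs in the anti-GFP mice, all above the 12240 and 13913 UMIs of the uninjured mice. Their median mitochondrial share was 30.0% to 43.6% with anti-GFP and 38.0% to 44.2% without injury. Markers of goblet cells (6 of 6 detected) summed to 5.38 to 9.02 normalized UMIs per TA cell in the anti-GFP mice, against 17.5 to 26.4 in the uninjured mice, and moved with the result. Enteroendocrine, tuft and colonocyte markers had medians of 0.342, 0.0082 and 3.96 in the anti-GFP mice. In the uninjured mice these medians were higher, at 2.29, 0.308 and 6.09, while the ranges overlapped. Stem cell markers (at most 1 of 5 at 0 in a mouse) summed to 8.48 to 14.1 with anti-GFP and 7.45 to 10.4 without injury. Myeloid markers reached 133.8 in anti-GFP mouse 1 at 48 h and lay between 0.478 and 7.11 in the other anti-GFP mice, against 0.321 to 0.547 in the uninjured mice. The part of depth and of these markers in the result was not tested. Without cells holding 2 markers of another lineage, 33 of the 43 genes fell.

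**Figure D3:**
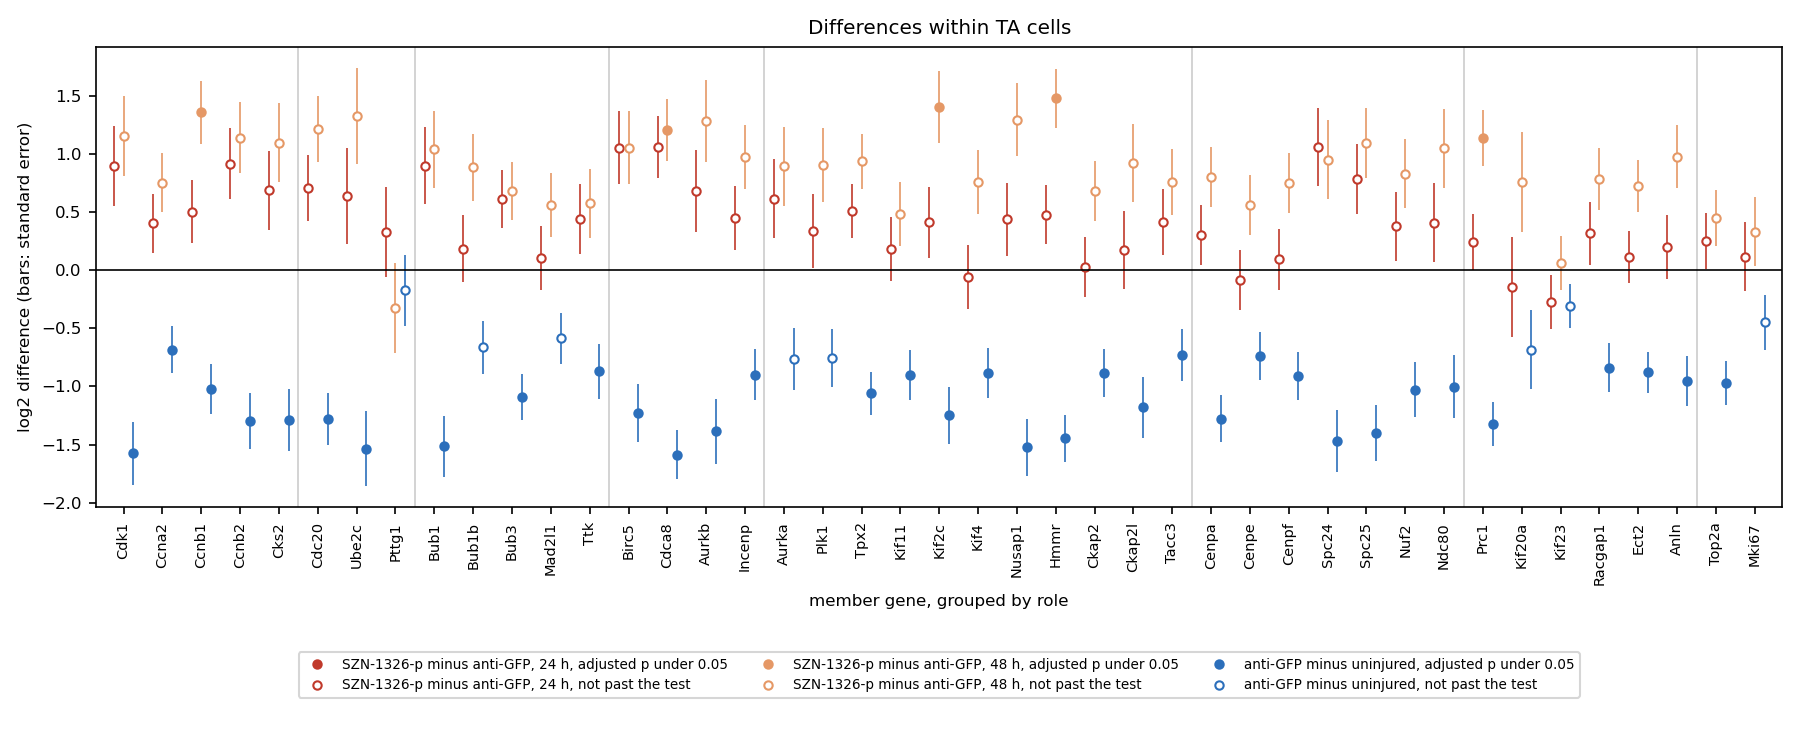
Log2 difference in TA cells for each of the 43 genes, grouped by role, with standard errors as bars. Filled points passed the test: 35 for anti-GFP minus uninjured, all below 0, 5 for SZN-1326-p minus anti-GFP at 48 h, all above 0, and none at 24 h.

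The next comparison set SZN-1326-p against anti-GFP within TA cells, all from mice on DSS. At 24 h no member passed the test (0 of 43 by limma, 10 at an unadjusted p under 0.05, 0 by voom on recovered UMI sums), where 0.0% of all genes did, and the median log2 difference was 0.41. At 48 h 5 rose and none fell, where 0.165% of all genes rose, and the median was 0.91 with 42 of 43 above 0. At 48 h all 3 SZN-1326-p mice were above all 3 anti-GFP mice in 30 of the 43, against 10.3% of all genes, and below them in Pttg1, against 11.4%. The 5 were Ccnb1, Cdca8, Kif2c, Hmmr and Prc1. The count at 48 h was 3 without SZN-1326-p mouse 2 or 3 of 24 h, 2 without anti-GFP mouse 2 of 24 h or SZN-1326-p mouse 1 of 48 h, and 0 without SZN-1326-p mouse 2 or 3 or anti-GFP mouse 1 of 48 h. It was 1 without anti-GFP mouse 3 of 48 h and 13 without anti-GFP mouse 2 of 48 h. At 24 h 1 member passed without SZN-1326-p mouse 1.

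Over both times together 15 of the 43 rose in TA cells of SZN-1326-p mice and none fell, where 0.954% of all genes rose and 0.835% fell, with a median difference of 0.62 against -0.03 over all genes. These were Cdca8, Hmmr, Ccnb1, Cdc20, Ccnb2, Birc5, Spc25, Tpx2, Spc24, Cdk1, Kif2c, Bub1, Prc1, Aurkb and Nusap1. The count was 24 without SZN-1326-p mouse 1 of 24 h. It was 4 and 2 without mice 2 and 3 of that group, and 5 and 6 without anti-GFP mice 1 and 2 of 24 h. Leaving out SZN-1326-p mice 1, 2 and 3 of 48 h gave 8, 6 and 2, and leaving out anti-GFP mouse 3 of 48 h gave 5. Without the 2 SZN-1326-p mice of high mitochondrial share over all cells no member passed at 24 h, at 48 h or over both times. In TA cells alone the share was 34.4% in the first of them, mouse 2 of 24 h, against 37.1% and 36.8% in mice 1 and 3. It was 32.7% in the second, mouse 3 of 48 h, against 31.4% and 27.2% in mice 1 and 2. In TA cells the median mitochondrial share ran from 27.2% to 37.1% in SZN-1326-p mice, against 30.0% to 43.6% in anti-GFP mice. Goblet markers summed to 6.99 to 15.5 in SZN-1326-p mice, against 5.38 to 9.02 in anti-GFP mice. Stem cell markers summed to 6.23 to 9.43 in SZN-1326-p mice, against 8.48 to 14.1 in anti-GFP mice. Medians of colonocyte, tuft and enteroendocrine markers were 5.90, 0.017 and 0.154 in SZN-1326-p mice, against 3.96, 0.0082 and 0.342, with overlapping ranges. The part of these measures in the result was not tested. The difference between 48 h and 24 h passed for no member (0 of 43 by limma, 5 at an unadjusted p under 0.05, 0 by voom), where 0.0% of genes passed, so the times are not shown to differ. The comparisons of SZN-1326-p with anti-GFP and of anti-GFP with uninjured share the anti-GFP mice and are therefore not independent.

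Among the cyclins and their kinase, all 5 fell with DSS in TA cells. Cdk1, the kinase at the centre of mitotic entry, had 0.574, 1.07 and 1.25 normalized UMIs per TA cell in the SZN-1326-p mice at 24 h, 0.381, 0.414 and 0.730 in the anti-GFP mice and 0.825 and 1.89 in the uninjured mice. At 48 h its levels were 1.20, 1.38 and 1.40 in mice given SZN-1326-p, 0.601, 0.893 and 0.380 in mice given anti-GFP and 2.04 and 2.15 in uninjured mice. The long-transcript libraries were the low ones of each 24 h group, and 1 anti-GFP mouse (0.893) passed the lowest uninjured mouse (0.825). Cdk1 fell to 0.336 of the uninjured level (log2 difference -1.57 ± 0.27, adjusted p = 0.00121) and rose with SZN-1326-p over both times (1.02 ± 0.24, adjusted p = 0.0346). Ccnb1, cyclin B1, had 0.357, 0.662 and 0.711 normalized UMIs per TA cell in the SZN-1326-p mice at 24 h, 0.398, 0.327 and 0.445 in the anti-GFP mice and 0.567 and 0.655 in the uninjured mice. Its levels at 48 h were 0.687, 0.790 and 1.07 in mice given SZN-1326-p, 0.247, 0.406 and 0.326 in mice given anti-GFP and 0.833 and 0.894 in uninjured mice. Every anti-GFP mouse was below every uninjured mouse, and at 48 h every SZN-1326-p mouse was above every anti-GFP mouse. The log2 difference was -1.02 ± 0.21, adjusted p = 0.00432 for anti-GFP minus uninjured and 1.36 ± 0.27, adjusted p = 0.0266 for SZN-1326-p minus anti-GFP at 48 h. Ccnb2, Ccna2 and Cks2 gave DSS differences of -1.30 ± 0.24, -0.69 ± 0.20 and -1.29 ± 0.27.

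Of the anaphase genes, Cdc20 and Ube2c fell with DSS and Pttg1 did not pass. Cdc20, which activates the anaphase-promoting complex, had 0.616, 1.06 and 1.28 normalized UMIs per TA cell in the SZN-1326-p mice at 24 h, 0.559, 0.517 and 0.659 in the anti-GFP mice and 1.02 and 1.50 in the uninjured mice. The 48 h mice had 1.14, 1.14 and 1.72 in mice given SZN-1326-p, 0.467, 0.748 and 0.490 in mice given anti-GFP and 1.24 and 1.96 in uninjured mice. The anti-GFP and uninjured mice did not overlap, and SZN-1326-p mice were above anti-GFP mice at 48 h. Its log2 difference was -1.28 ± 0.22, adjusted p = 0.00112 with DSS and 0.96 ± 0.20, adjusted p = 0.0157 with SZN-1326-p over both times. Ube2c, the ubiquitin-conjugating enzyme of that complex, had 0.697, 1.41 and 1.99 normalized UMIs per TA cell in the SZN-1326-p mice at 24 h, 0.643, 0.624 and 1.28 in the anti-GFP mice and 1.71 and 2.62 in the uninjured mice. Levels at 48 h were 2.03, 1.98 and 3.11 in mice given SZN-1326-p, 0.643, 1.78 and 0.675 in mice given anti-GFP and 2.54 and 3.45 in uninjured mice. Anti-GFP mouse 2 at 48 h reached the lowest uninjured mouse, and Ube2c fell with DSS (-1.53 ± 0.33, adjusted p = 0.00699). Pttg1 had 0.104, 0.215 and 0.306 normalized UMIs per TA cell in the SZN-1326-p mice at 24 h, 0.151, 0.0926 and 0.240 in the anti-GFP mice and 0.126 and 0.344 in the uninjured mice. At 48 h it had 0.238, 0.231 and 0.227 in mice given SZN-1326-p, 0.325, 0.269 and 0.292 in mice given anti-GFP and 0.233 and 0.322 in uninjured mice. The anti-GFP and uninjured mice overlapped, with a difference of -0.18 ± 0.31, adjusted p = 0.737, and at 48 h its SZN-1326-p mice were below the anti-GFP mice without passing the test (-0.33 ± 0.39, adjusted p = 0.757).

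In the spindle checkpoint 3 of 5 genes fell with DSS. Bub1, the kinase that recruits checkpoint proteins to kinetochores, had 0.233, 0.229 and 0.154 normalized UMIs per TA cell in the SZN-1326-p mice at 24 h, 0.104, 0.127 and 0.0846 in the anti-GFP mice and 0.355 and 0.316 in the uninjured mice. Its levels at 48 h were 0.195, 0.386 and 0.295 in mice given SZN-1326-p, 0.152, 0.189 and 0.0789 in mice given anti-GFP and 0.398 and 0.347 in uninjured mice. Anti-GFP mice were all below uninjured mice, with a log2 difference of -1.51 ± 0.26, adjusted p = 0.000983, and Bub1 rose with SZN-1326-p over both times (0.97 ± 0.23, adjusted p = 0.0362). Bub3 also fell (-1.09 ± 0.20, adjusted p = 0.00138), as did Ttk, the kinase also called Mps1 (-0.87 ± 0.24, adjusted p = 0.0209). Bub1b and Mad2l1, parts of the complex that holds back Cdc20, gave -0.67 ± 0.23, adjusted p = 0.0582 and -0.59 ± 0.22, adjusted p = 0.0791.

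All 4 genes of the chromosomal passenger complex, which corrects faulty attachments of chromosomes and helps cytokinesis, fell with DSS. Cdca8, its borealin subunit, had 0.869, 1.19 and 1.10 normalized UMIs per TA cell in the SZN-1326-p mice at 24 h, 0.479, 0.415 and 0.610 in the anti-GFP mice and 1.23 and 1.53 in the uninjured mice. The 48 h mice had 1.23, 1.30 and 1.41 in mice given SZN-1326-p, 0.602, 0.817 and 0.363 in mice given anti-GFP and 1.53 and 2.31 in uninjured mice. Anti-GFP mice were below the other arms at both times, with no overlap. Cdca8 fell to 0.333 of the uninjured level (log2 difference -1.59 ± 0.21, adjusted p = 7.94e-05), rose at 48 h with SZN-1326-p (1.20 ± 0.27, adjusted p = 0.0431) and rose over both times (1.13 ± 0.19, adjusted p = 0.00519). Birc5, survivin, had 0.888, 1.75 and 1.87 normalized UMIs per TA cell in the SZN-1326-p mice at 24 h, 0.617, 0.496 and 1.04 in the anti-GFP mice and 1.34 and 2.13 in the uninjured mice. Levels at 48 h were 1.61, 2.17 and 2.53 in mice given SZN-1326-p, 0.969, 1.32 and 0.761 in mice given anti-GFP and 1.85 and 2.66 in uninjured mice. The highest anti-GFP mouse and the lowest uninjured mouse were next to each other, and Birc5 fell with DSS (-1.23 ± 0.25, adjusted p = 0.00384) and rose with SZN-1326-p over both times (1.05 ± 0.22, adjusted p = 0.0166). Aurkb, the kinase of the complex, gave -1.39 ± 0.28, adjusted p = 0.00338 with DSS, and Incenp, its scaffold, gave -0.90 ± 0.22, adjusted p = 0.0112.

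Of 11 spindle kinases, kinesins and spindle proteins 9 fell with DSS, Aurka and Plk1 being the others. Hmmr, a protein that shapes the spindle, had 0.685, 0.789 and 0.727 normalized UMIs per TA cell in the SZN-1326-p mice at 24 h, 0.595, 0.524 and 0.463 in the anti-GFP mice and 1.14 and 1.43 in the uninjured mice. At 48 h it had 1.10, 1.34 and 1.38 in mice given SZN-1326-p, 0.304, 0.708 and 0.422 in mice given anti-GFP and 1.31 and 1.52 in uninjured mice. SZN-1326-p mice of 48 h were well above the anti-GFP mice and reached the uninjured range. Hmmr fell with DSS (-1.45 ± 0.20, adjusted p = 0.000132) and had the largest rise of the 43 with SZN-1326-p at 48 h (1.48 ± 0.25, adjusted p = 0.00766). Kif2c, a kinesin that takes microtubule ends apart, had 0.144, 0.196 and 0.210 normalized UMIs per TA cell in the SZN-1326-p mice at 24 h, 0.120, 0.142 and 0.140 in the anti-GFP mice and 0.209 and 0.277 in the uninjured mice. Its levels at 48 h were 0.250, 0.252 and 0.356 in mice given SZN-1326-p, 0.123, 0.127 and 0.0645 in mice given anti-GFP and 0.391 and 0.312 in uninjured mice. Its arms did not overlap in either comparison at 48 h, where it rose with SZN-1326-p (1.40 ± 0.31, adjusted p = 0.0427), and it fell with DSS (-1.25 ± 0.24, adjusted p = 0.00261). Nusap1, which binds and bundles spindle microtubules, fell with DSS (-1.52 ± 0.25, adjusted p = 0.000584). Tpx2, Kif11, Kif4, Tacc3, Ckap2 and Ckap2l fell by less, with differences of -1.06 ± 0.18, -0.90 ± 0.22, -0.88 ± 0.22, -0.73 ± 0.22, -0.89 ± 0.20 and -1.18 ± 0.26. Plk1 and Aurka, the kinases of centrosome maturation and mitotic entry, gave -0.76 ± 0.25, adjusted p = 0.0523 and -0.76 ± 0.27, adjusted p = 0.0669.

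The 7 kinetochore genes all fell with DSS in TA cells. Spc24, of the Ndc80 complex that grips microtubules, had 0.538, 1.02 and 1.19 normalized UMIs per TA cell in the SZN-1326-p mice at 24 h, 0.382, 0.311 and 0.585 in the anti-GFP mice and 0.926 and 1.92 in the uninjured mice. The 48 h mice had 1.22, 1.30 and 1.18 in mice given SZN-1326-p, 0.685, 0.917 and 0.401 in mice given anti-GFP and 1.29 and 1.84 in uninjured mice. Anti-GFP mice lay below uninjured mice, by a narrow margin between 1 mouse of each arm. The log2 difference was -1.47 ± 0.27, adjusted p = 0.00162 with DSS and 1.00 ± 0.24, adjusted p = 0.0341 with SZN-1326-p over both times. Cenpa had 0.506, 0.862 and 0.783 normalized UMIs per TA cell in the SZN-1326-p mice at 24 h, 0.519, 0.679 and 0.513 in the anti-GFP mice and 1.45 and 1.22 in the uninjured mice. Levels at 48 h were 0.813, 0.846 and 1.31 in mice given SZN-1326-p, 0.434, 0.714 and 0.537 in mice given anti-GFP and 1.48 and 1.33 in uninjured mice. Its anti-GFP and uninjured mice were far apart (-1.28 ± 0.20, adjusted p = 0.000474), and it did not pass with SZN-1326-p at 48 h (0.80 ± 0.26, adjusted p = 0.204). The other kinetochore genes, Cenpe, Cenpf, Spc25, Nuf2 and Ndc80, had DSS differences of -0.74 ± 0.20, -0.91 ± 0.20, -1.40 ± 0.24, -1.03 ± 0.23 and -1.0 ± 0.27.

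In cytokinesis 4 of 6 genes fell with DSS. Prc1, which bundles the microtubules of the midzone, had 0.928, 1.02 and 0.686 normalized UMIs per TA cell in the SZN-1326-p mice at 24 h, 0.799, 0.728 and 0.670 in the anti-GFP mice and 1.66 and 1.55 in the uninjured mice. At 48 h it had 1.19, 1.33 and 1.28 in mice given SZN-1326-p, 0.552, 0.827 and 0.407 in mice given anti-GFP and 1.74 and 1.58 in uninjured mice. The uninjured mice were all above the anti-GFP mice. Prc1 fell with DSS (-1.32 ± 0.19, adjusted p = 0.000192) and rose with SZN-1326-p at 48 h (1.14 ± 0.24, adjusted p = 0.0366). Kif23 had 1.20, 1.12 and 0.976 normalized UMIs per TA cell in the SZN-1326-p mice at 24 h, 1.21, 1.44 and 1.34 in the anti-GFP mice and 1.62 and 1.32 in the uninjured mice. Its levels at 48 h were 0.828, 1.05 and 1.44 in mice given SZN-1326-p, 0.836, 1.33 and 0.994 in mice given anti-GFP and 1.37 and 1.52 in uninjured mice. At 24 h the SZN-1326-p mice were below the anti-GFP mice without passing the test (-0.27 ± 0.24, adjusted p = 0.649), and at 48 h those arms overlapped. Anti-GFP and uninjured mice overlapped at 24 h but not at 48 h, and the DSS difference was -0.31 ± 0.19, adjusted p = 0.281. Racgap1, the partner of Kif23, fell with DSS (-0.84 ± 0.21, adjusted p = 0.0136). Ect2 and the scaffold protein Anln fell too (-0.88 ± 0.18 and -0.95 ± 0.22), and Kif20a gave -0.69 ± 0.34, adjusted p = 0.187.

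Of the chromosome genes Top2a passed with DSS and Mki67 did not, a difference between them that was not tested. Top2a had 3.23, 3.03 and 2.32 normalized UMIs per TA cell in the SZN-1326-p mice at 24 h, 2.49, 2.78 and 1.94 in the anti-GFP mice and 4.63 and 3.93 in the uninjured mice. The 48 h mice had 2.84, 3.01 and 3.45 in mice given SZN-1326-p, 2.02, 2.93 and 1.95 in mice given anti-GFP and 4.62 and 5.18 in uninjured mice. Its anti-GFP and uninjured mice did not overlap, and Top2a fell (-0.97 ± 0.19, adjusted p = 0.00249). Mki67 had 6.75, 3.76 and 3.17 normalized UMIs per TA cell in the SZN-1326-p mice at 24 h, 5.34, 4.11 and 2.89 in the anti-GFP mice and 5.79 and 4.13 in the uninjured mice. Levels at 48 h were 3.44, 3.71 and 4.27 in mice given SZN-1326-p, 2.67, 4.04 and 2.54 in mice given anti-GFP and 3.91 and 5.41 in uninjured mice. Its arms overlapped, and neither DSS (-0.45 ± 0.24, adjusted p = 0.211) nor SZN-1326-p at 24 h (0.11 ± 0.30, adjusted p = 0.9) nor at 48 h (0.33 ± 0.30, adjusted p = 0.674) passed. The long-transcript libraries were the highest of each 24 h group for Mki67 and the lowest for Cdk1. Across the 43 genes, the mean difference between these libraries and the others of their 24 h group went with the longest annotated transcript. Pearson r was 0.69 with log2 length and Spearman rho 0.65, across genes, which are not independent. The libraries were picked by such a shift with transcript length in fibroblasts, so this relation describes the choice and is no separate result. The 13 genes of at least 4000 bases had a median difference of 0.15 and the 8 under 2000 bases one of -0.69. With a term for these libraries in the fit, 39 of the 43 genes fell with DSS in TA cells and 18 rose with SZN-1326-p at 48 h. The share of all genes called in that fit is not given.

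**Figure D4:**
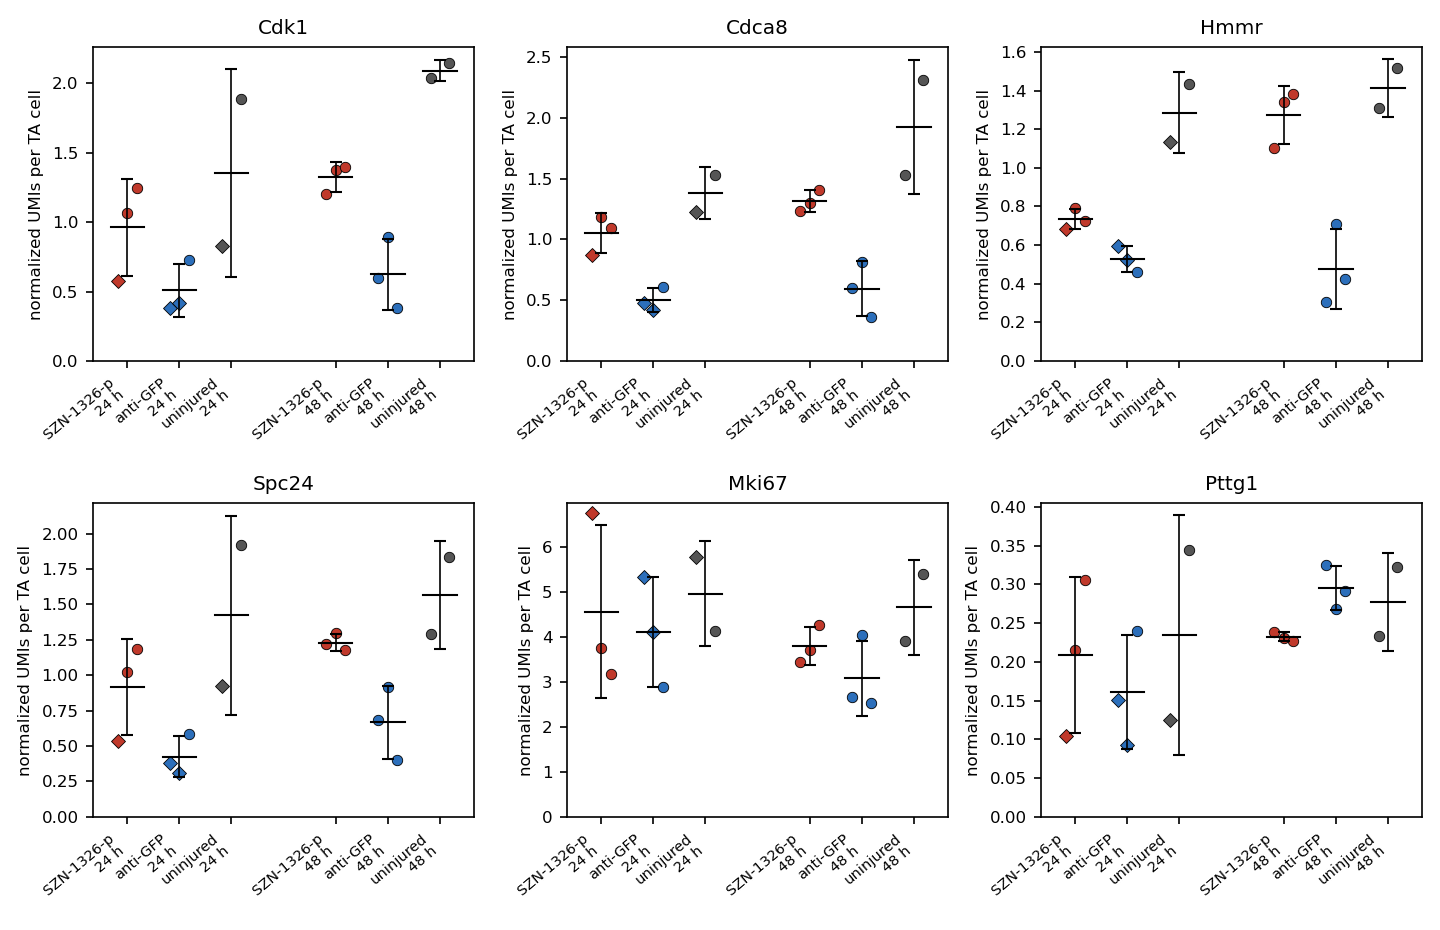
Level per TA cell of 6 members by group, in normalized UMIs. Points are mice (diamonds, the 4 libraries with more UMIs of long transcripts), long lines are means and bars are SD (n = 3, or 2 for uninjured). Cdk1, Cdca8, Hmmr and Spc24 are low in the anti-GFP mice, while the anti-GFP and uninjured mice overlap in Mki67 and Pttg1.

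Over the whole epithelium SZN-1326-p came with higher levels at 24 h. Of the 43 genes 19 rose and none fell, where 5.89% of 10795 genes rose and 4.25% fell. All 43 differences were above 0 (median 0.89, against -0.06 over all genes), and in 33 all 3 SZN-1326-p mice were above all 3 anti-GFP mice, against 11.0% of all genes (and in none below, against 13.3%). The TA share of the epithelium was 50.7%, 40.3% and 36.3% in the SZN-1326-p mice, against 26.8%, 22.2% and 21.3% in the anti-GFP mice. Equal weights in every mouse could be put on the 9 epithelial types with at least 5 cells in each of these mice, which include TA1 but neither TA2 nor StemCell. With them no member passed (0 of 39, median difference 0.41). With TA1 and TA2 joined as 1 of the 9 types none passed either (0 of 39, median 0.51), and without TA cells 2 of 35 passed (median 0.61). The count was 7 without SZN-1326-p mouse 2 or mouse 3, 10 without anti-GFP mouse 1, 4 without anti-GFP mouse 2, and 0 in a fit of the compared groups alone. It was 4 without the 2 SZN-1326-p mice of high mitochondrial share and 32 with a term for the long-transcript libraries. The share of all genes called under each of these alternatives is not given, so their counts have no background beside them.

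At 48 h 12 of the 43 rose in the epithelium and none fell, where 2.41% of all genes rose and 10.1% fell. The median difference was 0.66, against -0.11 over all genes, and in 15 genes all SZN-1326-p mice were above all anti-GFP mice, against 12.7% of all genes. In Bub3 they were all below, against 24.3%. The TA share was 22.2%, 28.7% and 17.6% in SZN-1326-p mice, against 22.1%, 24.8% and 22.9% in anti-GFP mice, and so did not separate the arms. With equal weights on 8 types, TA1, TA2 and StemCell among them, 3 of 43 passed (median 0.63). With TA1 and TA2 joined 8 of 40 passed (median 0.74), and without TA cells 2 of 35 rose and 1 fell (median 0.35). The count was 0 without SZN-1326-p mouse 2, 4 without mouse 3, 0 without anti-GFP mouse 1, 24 without anti-GFP mouse 2 and 1 without anti-GFP mouse 3. It was 3 without the 2 mice of high mitochondrial share, 7 without the filter on low genes and 20 without cells of mixed markers. As at 24 h, the counts of these alternatives have no share of all genes beside them. Myeloid markers (9 genes) in epithelial cells summed to 1.01 to 4.79 in the 48 h mice with SZN-1326-p, against 0.903 to 36.3 in those with anti-GFP, and their part in the result was not tested. The difference between 48 h and 24 h passed for no member (0 of 43 by limma, 1 at an unadjusted p under 0.05, 0 by voom), where 0.00926% of genes were higher and 0.13% lower.

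**Figure D5:**
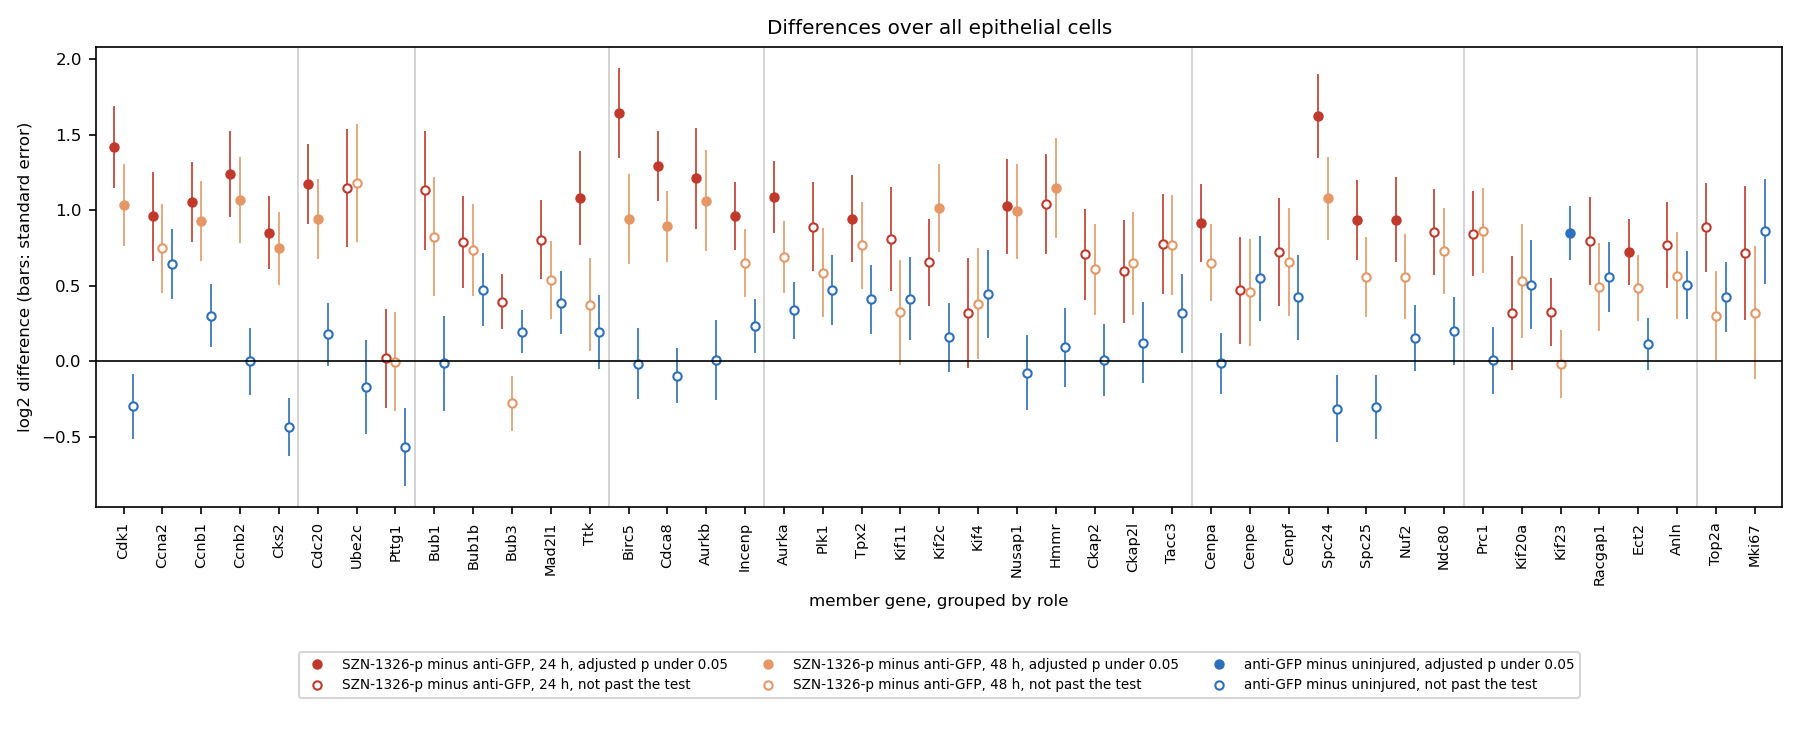
Log2 difference over all epithelial cells for each of the 43 genes, grouped by role, with standard errors as bars. Filled points passed the test: 19 for SZN-1326-p minus anti-GFP at 24 h and 12 at 48 h, all above 0, and Kif23 alone for anti-GFP minus uninjured.

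The cyclin group rose whole at 24 h (5 of 5), and 4 of 5 at 48 h. Cdk1 at 24 h had 0.342, 0.533 and 0.590 in the SZN-1326-p mice, against 0.157, 0.139 and 0.231 in the anti-GFP mice, in normalized UMIs per epithelial cell. At 48 h Cdk1 had 0.349, 0.443 and 0.337 in the SZN-1326-p mice, against 0.156, 0.281 and 0.125 in the anti-GFP mice. The arms did not overlap at either time, with log2 differences of 1.42 ± 0.27, adjusted p = 0.00645 and 1.04 ± 0.27, adjusted p = 0.0182 in that order of time. Ccnb1 at 24 h had 0.235, 0.336 and 0.328 in the SZN-1326-p mice, against 0.177, 0.104 and 0.140 in the anti-GFP mice. At 48 h Ccnb1 had 0.186, 0.294 and 0.253 in the SZN-1326-p mice, against 0.0817, 0.168 and 0.130 in the anti-GFP mice. Again the arms were apart (1.06 ± 0.26, adjusted p = 0.0198 at 24 h and 0.93 ± 0.26, adjusted p = 0.0283 at 48 h). Ccnb2, the second B-type cyclin, at 24 h had 0.237, 0.304 and 0.403 in the SZN-1326-p mice, against 0.131, 0.102 and 0.143 in the anti-GFP mice. At 48 h Ccnb2 had 0.223, 0.353 and 0.261 in the SZN-1326-p mice, against 0.0807, 0.174 and 0.139 in the anti-GFP mice. Its differences were 1.24 ± 0.28, adjusted p = 0.0129 and 1.07 ± 0.28, adjusted p = 0.0198. Ccna2 at 24 h had 0.502, 0.464 and 0.397 in the SZN-1326-p mice, against 0.239, 0.279 and 0.176 in the anti-GFP mice (0.96 ± 0.29, adjusted p = 0.0459). Cks2 at 24 h had 0.696, 1.17 and 1.20 in the SZN-1326-p mice, against 0.481, 0.453 and 0.741 in the anti-GFP mice, and the long-transcript SZN-1326-p mouse lay below the highest anti-GFP mouse. At 48 h Cks2 had 1.04, 1.21 and 1.09 in the SZN-1326-p mice, against 0.543, 0.869 and 0.598 in the anti-GFP mice. It rose at both times (0.85 ± 0.24, adjusted p = 0.0335 and 0.75 ± 0.24, adjusted p = 0.0498).

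The passenger complex rose whole at 24 h (4 of 4), and 3 of 4 rose at 48 h. Birc5 at 24 h had 0.609, 0.909 and 0.920 in the SZN-1326-p mice, against 0.282, 0.173 and 0.313 in the anti-GFP mice, per epithelial cell. At 48 h Birc5 had 0.446, 0.788 and 0.648 in the SZN-1326-p mice, against 0.272, 0.464 and 0.243 in the anti-GFP mice. Every SZN-1326-p mouse was above the anti-GFP mice at 24 h, and 1 anti-GFP mouse lay within the SZN-1326-p range at 48 h (1.64 ± 0.30, adjusted p = 0.00573 and 0.94 ± 0.30, adjusted p = 0.0485). Cdca8 at 24 h had 0.547, 0.587 and 0.518 in the SZN-1326-p mice, against 0.232, 0.210 and 0.213 in the anti-GFP mice. At 48 h Cdca8 had 0.344, 0.470 and 0.355 in the SZN-1326-p mice, against 0.164, 0.297 and 0.171 in the anti-GFP mice. The arms did not overlap (1.30 ± 0.23, adjusted p = 0.00541 and 0.89 ± 0.23, adjusted p = 0.018). Aurkb at 24 h had 0.167, 0.163 and 0.148 in the SZN-1326-p mice, against 0.0515, 0.0613 and 0.0785 in the anti-GFP mice. At 48 h Aurkb had 0.111, 0.114 and 0.130 in the SZN-1326-p mice, against 0.0251, 0.104 and 0.0477 in the anti-GFP mice. It too was apart at both times (1.21 ± 0.33, adjusted p = 0.0303 and 1.06 ± 0.33, adjusted p = 0.0447). Incenp at 24 h had 0.374, 0.407 and 0.316 in the SZN-1326-p mice, against 0.225, 0.124 and 0.215 in the anti-GFP mice (0.96 ± 0.23, adjusted p = 0.0145).

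Of the 7 kinetochore genes 4 rose at 24 h, and Spc24 alone at 48 h. Spc24 at 24 h had 0.360, 0.563 and 0.618 in the SZN-1326-p mice, against 0.158, 0.117 and 0.202 in the anti-GFP mice, per epithelial cell. At 48 h Spc24 had 0.402, 0.560 and 0.373 in the SZN-1326-p mice, against 0.183, 0.308 and 0.145 in the anti-GFP mice. Its arms were apart, with 1.63 ± 0.28, adjusted p = 0.00371 at 24 h, close to the largest difference of the 43, and 1.08 ± 0.28, adjusted p = 0.017 at 48 h. Spc25, its partner, at 24 h had 0.124, 0.105 and 0.125 in the SZN-1326-p mice, against 0.0611, 0.0519 and 0.0570 in the anti-GFP mice (0.94 ± 0.27, adjusted p = 0.0339). Nuf2, of the same complex, at 24 h had 0.0726, 0.0880 and 0.110 in the SZN-1326-p mice, against 0.0488, 0.0369 and 0.0398 in the anti-GFP mice (0.94 ± 0.28, adjusted p = 0.0405). Cenpa at 24 h had 0.335, 0.456 and 0.401 in the SZN-1326-p mice, against 0.212, 0.236 and 0.169 in the anti-GFP mice (0.92 ± 0.26, adjusted p = 0.0323). None of these 3 overlapped between arms at 24 h.

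Spindle, checkpoint and anaphase genes passed in part. Cdc20 at 24 h had 0.391, 0.523 and 0.560 in the SZN-1326-p mice, against 0.225, 0.197 and 0.207 in the anti-GFP mice, per epithelial cell. At 48 h Cdc20 had 0.312, 0.404 and 0.410 in the SZN-1326-p mice, against 0.132, 0.298 and 0.170 in the anti-GFP mice. It was higher in every SZN-1326-p mouse at both times (1.18 ± 0.26, adjusted p = 0.0121 and 0.94 ± 0.26, adjusted p = 0.0261). Ube2c at 24 h had 0.496, 0.743 and 0.989 in the SZN-1326-p mice, against 0.350, 0.216 and 0.419 in the anti-GFP mice, with no overlap, and did not pass at 24 h (1.15 ± 0.39, adjusted p = 0.075) or at 48 h (1.18 ± 0.39, adjusted p = 0.062). Nusap1 at 24 h had 0.182, 0.181 and 0.200 in the SZN-1326-p mice, against 0.103, 0.0768 and 0.0832 in the anti-GFP mice. At 48 h Nusap1 had 0.150, 0.171 and 0.168 in the SZN-1326-p mice, against 0.0433, 0.150 and 0.0662 in the anti-GFP mice. It rose at both times (1.03 ± 0.32, adjusted p = 0.0463 and 0.99 ± 0.32, adjusted p = 0.0473), with 1 anti-GFP mouse at the SZN-1326-p level at 48 h. Aurka at 24 h had 0.155, 0.178 and 0.164 in the SZN-1326-p mice, against 0.0721, 0.0662 and 0.0800 in the anti-GFP mice (1.09 ± 0.24, adjusted p = 0.0108). Tpx2, which activates Aurka on the spindle, at 24 h had 0.332, 0.290 and 0.231 in the SZN-1326-p mice, against 0.186, 0.108 and 0.139 in the anti-GFP mice (0.94 ± 0.29, adjusted p = 0.0459). Both were higher in all 3 SZN-1326-p mice, but with equal weights on the 9 types the difference of Tpx2 was -0.10.

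Ttk at 24 h had 0.125, 0.134 and 0.0758 in the SZN-1326-p mice, against 0.0429, 0.0390 and 0.0580 in the anti-GFP mice, per epithelial cell (1.08 ± 0.31, adjusted p = 0.0355). Ect2, which starts the furrow of cytokinesis, at 24 h had 0.285, 0.233 and 0.252 in the SZN-1326-p mice, against 0.208, 0.136 and 0.120 in the anti-GFP mice (0.73 ± 0.22, adjusted p = 0.0437). Neither overlapped between the arms at 24 h, and neither passed at 48 h. Hmmr at 48 h had 0.287, 0.469 and 0.312 in the SZN-1326-p mice, against 0.0867, 0.271 and 0.145 in the anti-GFP mice (1.15 ± 0.33, adjusted p = 0.0313). Kif2c at 48 h had 0.0555, 0.0788 and 0.0793 in the SZN-1326-p mice, against 0.0271, 0.0485 and 0.0189 in the anti-GFP mice (1.02 ± 0.29, adjusted p = 0.0279). Both were apart at 48 h and had not passed at 24 h, without a difference between the times being shown.

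Members that did not pass in the epithelium included some of the best known. Mki67 at 24 h had 4.04, 1.82 and 1.43 in the SZN-1326-p mice, against 1.91, 1.43 and 0.860 in the anti-GFP mice, per epithelial cell. SZN-1326-p mouse 1 was far above the others, and Mki67 gave 0.72 ± 0.44, adjusted p = 0.316 at 24 h and 0.32 ± 0.44, adjusted p = 0.678 at 48 h. Top2a at 24 h had 1.91, 1.43 and 1.10 in the SZN-1326-p mice, against 0.922, 0.863 and 0.583 in the anti-GFP mice (0.89 ± 0.29, adjusted p = 0.0639), with no overlap. Plk1 at 24 h had 0.256, 0.270 and 0.244 in the SZN-1326-p mice, against 0.153, 0.131 and 0.118 in the anti-GFP mice (0.89 ± 0.29, adjusted p = 0.0613), also without overlap. Bub3 at 48 h had 0.531, 0.561 and 0.478 in the SZN-1326-p mice, against 0.738, 0.580 and 0.597 in the anti-GFP mice, lower in every SZN-1326-p mouse without passing the test (-0.28 ± 0.18, adjusted p = 0.34). Pttg1 at 24 h had 0.150, 0.222 and 0.258 in the SZN-1326-p mice, against 0.190, 0.115 and 0.370 in the anti-GFP mice, with overlapping arms (0.02 ± 0.33, adjusted p = 0.974).

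Averaged over all epithelial cells, few members differed between the anti-GFP and uninjured mice: Kif23 rose and no other member passed, where 10.8% of all genes tested rose and 12.5% fell. Kif23 had 0.462, 0.477 and 0.457 normalized UMIs per epithelial cell in the anti-GFP mice at 24 h and 0.279, 0.517 and 0.338 at 48 h. In the uninjured mice it had 0.270 and 0.181 at 24 h and 0.198 and 0.260 at 48 h, below every anti-GFP mouse. Its log2 difference was 0.85 ± 0.18, adjusted p = 0.00297, and -0.11 with equal weights on 5 types, TA1 and TA2 joined as 1 of them. The median over the 43 genes was 0.20. The count of genes that rose was 4 without anti-GFP mouse 3 of 24 h, 5 without uninjured mouse 1 of 24 h or anti-GFP mouse 1 of 48 h, and 2 without uninjured mouse 2 of 48 h. Genes that fell numbered 2 without anti-GFP mouse 3 of 24 h and 1 without anti-GFP mouse 2 of 48 h.

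Among progenitors as a whole (StemCell, TA1 and TA2, 3058 cells) fewer members passed. With DSS 8 fell and none rose, where 4.21% of all genes fell, and the median difference was -0.18. These were Cdk1, Ccnb2, Cks2, Bub3, Cdca8, Nusap1, Spc24 and Spc25. StemCell cells, which hold few UMIs of members, were 87 cells in the anti-GFP mice and 425 in the uninjured mice, so the mix of the class differed. The mix could not be held equal, because anti-GFP mice 1 and 2 of 24 h had 3 and 1 StemCell cells. The count of 8 was 13 without anti-GFP mouse 2 of 48 h. It was 1, 2, 4 or 5 without anti-GFP mice 1 and 2 of 24 h, anti-GFP mice 1 and 3 of 48 h, any 1 uninjured mouse or any SZN-1326-p mouse of 48 h. With SZN-1326-p, Cdca8 rose at 24 h (1.10 ± 0.21, adjusted p = 0.0396), where 0.0558% of all genes rose, and Ccnb1 and Hmmr rose at 48 h (1.16 ± 0.24, adjusted p = 0.0339 and 1.25 ± 0.25, adjusted p = 0.0319), where 0.139% rose. The count of 1 at 24 h was 8 without SZN-1326-p mouse 1 and 4 without anti-GFP mouse 3 of that time, and 0 without any other 24 h mouse, any SZN-1326-p mouse of 48 h or uninjured mouse 2 of 48 h. The count of 2 at 48 h was 6 without anti-GFP mouse 2 of that time, 1 without either uninjured mouse and 0 without any other 48 h mouse. Both counts were 0 without the 2 SZN-1326-p mice of high mitochondrial share.

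AltEnteroPC cells, the next epithelial type by the thinned share, showed no member past the test with SZN-1326-p over both times (0 of 42 by limma, 7 at an unadjusted p under 0.05, 1 by voom), where 0.634% of genes rose and 0.663% fell, with a median of 0.51. The fit left out 1 uninjured mouse of 48 h, with 10 such cells. The share of these cells with UMIs of at least 3 members was 2.99% to 22.1% over the 6 SZN-1326-p mice (median 19.1%). It was 2.86% to 17.8% over the 6 anti-GFP mice (median 6.72%) and 7.55% to 13.6% over the 4 uninjured mice (median 10.6%), so that the arms overlapped. The count of members that rose was 2 without uninjured mouse 1 or mouse 2 of 24 h, 2 in a fit of the compared groups alone and 5 without cells of mixed markers.

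In fibroblasts (5690 cells) the summed level of 42 members was 2.01 ± 0.465 normalized UMIs per cell with SZN-1326-p, 1.31 ± 0.307 with anti-GFP and 1.50 ± 0.0954 without injury (SD, n = 6, 6 and 4). Only 18 of the 43 genes passed the filter on low values. Birc5 rose with SZN-1326-p over both times (1 of 18, 1.56 ± 0.30, adjusted p = 0.0378), where 0.126% of genes rose. Its levels at 24 h were 0.0692, 0.105 and 0.0970 in SZN-1326-p mice, against 0.0434, 0.0493 and 0.0243 in anti-GFP mice. At 48 h they were 0.0432, 0.0436 and 0.127 in SZN-1326-p mice, against 0.0139, 0.0120 and 0 in anti-GFP mice. The arms were apart at each time, and the lowest SZN-1326-p mice, of 48 h, lay at the level of the highest anti-GFP mice, of 24 h. With DSS Ube2c and Pttg1 fell (2 of 18, -1.10 ± 0.36, adjusted p = 0.0308 and -0.55 ± 0.19, adjusted p = 0.0377), where 10.1% of genes fell. Markers of epithelial cells (6 genes) in fibroblasts summed to 2.04 to 5.35 in the SZN-1326-p mice, 0.637 to 2.45 in the anti-GFP mice and 3.52 to 7.82 in the uninjured mice, and moved with these 3 genes. Their part in the result was not tested.

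The level of Birc5 was 0 in anti-GFP mouse 3 of 48 h, so its log2 difference depends on the 0.01 added to each level. Birc5 no longer passed without any 1 of the 3 SZN-1326-p mice of 24 h, SZN-1326-p mouse 3 of 48 h, anti-GFP mouse 1 of 24 h, anti-GFP mouse 1 or 3 of 48 h, or either uninjured mouse of 48 h. The count was 3 without anti-GFP mouse 3 of 24 h and 2 without anti-GFP mouse 2 of 48 h. The DSS count was 0 without uninjured mouse 2 of either time or anti-GFP mouse 3 of 48 h, and 1 without anti-GFP mouse 1 of either time, anti-GFP mouse 2 of 24 h or uninjured mouse 1 of either time. In T lymphoid cells no member passed with SZN-1326-p (0 of 42 by limma, 6 at an unadjusted p under 0.05, 1 by voom), where 0.0431% of genes rose, and 1 uninjured mouse of 24 h, with 6 cells, was left out. In myeloid cells none passed (0 of 40 by limma, 15 at an unadjusted p under 0.05, 0 by voom), where 0.0455% rose, with 2 past the test without anti-GFP mouse 3 of 24 h. Median differences were 0.69 in T lymphoid and 0.59 in myeloid cells.

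Of 75 other genes of G2 and mitosis in the matrix, 43 fell with DSS in TA cells and none rose, where 4.93% of all genes fell. Among these, Pbk, a mitotic kinase, fell by 1.67 ± 0.27 on the log2 scale (adjusted p = 0.000526) and Cdkn3, a phosphatase of Cdk1 and Cdk2, by 1.57 ± 0.28 (adjusted p = 0.00122). Fbxo5, which restrains the anaphase-promoting complex before mitosis, fell by 1.44 ± 0.24 (adjusted p = 0.00081), and Knl1, a kinetochore scaffold, by 1.43 ± 0.24 (adjusted p = 0.000728). Over the epithelium with DSS 8 of 65 tested rose, where 10.8% of all genes did, a share close to theirs. Tubb4b and Wee1 fell, 2 of 65 where 12.5% of all genes fell. In the epithelium at 24 h 20 of 65 rose with SZN-1326-p and none fell, where 5.89% of all genes rose, led by Cenpm (1.54 ± 0.31, adjusted p = 0.0072), Cenph (1.50 ± 0.29, adjusted p = 0.00649), both of the inner kinetochore, and Pbk (1.41 ± 0.29, adjusted p = 0.00803). At 48 h 3 of 65 rose, where 2.41% of all genes did. Tuba1c, a tubulin, fell (-0.83 ± 0.17, adjusted p = 0.00397), 1 of 65 where 10.1% of all genes fell. Over both times Cdkn3 rose in TA cells with SZN-1326-p (1.18 ± 0.25, adjusted p = 0.0166), as did 5 more of the 75 genes, where 0.954% of all genes rose.

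Of 15 genes that hold back the cycle in G1 or G2, 14 were tested in the epithelium, Wee1 being on both lists. Epithelial levels average over types whose shares differed between the arms, and the part of cell makeup in these results was not tested. With DSS 7 fell and none rose, where 12.5% of all genes fell, among them Cdkn1a, the p21 inhibitor of cyclin-dependent kinases (-1.84 ± 0.18, adjusted p = 2.97e-06), and Ccng2, a cyclin tied to cell cycle exit (-1.13 ± 0.21, adjusted p = 0.00108). With SZN-1326-p 3 fell at 24 h (Ccng2, Cdkn2b and Cdkn1a) and 4 at 48 h, where 4.25% and 10.1% of all genes fell at these times. At 48 h Cdkn1c, the p57 inhibitor, fell by 3.06 ± 0.52 on the log2 scale (adjusted p = 0.00229). In TA cells with DSS Gadd45b, a stress-induced gene, rose (1.35 ± 0.42, adjusted p = 0.0468), 1 of 14 where 6.7% of all genes rose. In the same comparison 3 of 14 fell, where 4.93% of all genes fell. The 3 were Cdkn2d (-1.52 ± 0.36, adjusted p = 0.00943) and Cdkn2c (-1.38 ± 0.30, adjusted p = 0.00513), inhibitors of Cdk4 and Cdk6, and Wee1, the kinase that keeps Cdk1 inactive (-1.0 ± 0.26, adjusted p = 0.0146). Of the 7 genes that fell over the epithelium with DSS, Wee1 alone also passed in TA cells. Cdkn2c rose in TA cells with SZN-1326-p over both times (1.01 ± 0.26, adjusted p = 0.0497), where 0.954% of all genes rose. Ccng2 rose in progenitors with DSS (0.84 ± 0.23, adjusted p = 0.0218), where 6.7% of all genes rose.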

How the data were processed

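Single-cell RNA-seq of dissociated transverse colon (10x Genomics version 3 libraries) was processed by the authors with Cell Ranger 3.0.2 on mm10, per the submitters' processing notes. The deposited matrix holds log2 values, log2(UMIs / size factor of the cell + 1), a form read from the values: un-logged, 100.0% of 60867816 entries above 0 were whole UMIs (relative tolerance 1e-06). The authors' deposited table gives other fields, the mouse, group, tissue layer and cell type of each cell, and how types were called and doublets were treated is not given in the sources used here.

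Values were un-logged and averaged over the cells of a class in each mouse. The test was limma 3.58.1 (R 4.3.3, trend and robust options) on log2(mean + 0.01), for genes with a mean of at least 0.05 in at least 2 mice and libraries of at least 20 cells, with 6 groups in 1 fit and a Benjamini-Hochberg threshold of 0.05 over all genes tested. Python 3.11.15, numpy 2.4.6, scipy 1.17.1 and pandas 2.3.3 did the rest. The fit was tested on simulated data. Cells held 996 to 59845 UMIs (median 8849). Shares of cells with UMIs of 3 or more members were taken after thinning to 2000 UMIs, leaving out shallower cells, and have no test, since the members may bear on how cells were typed.

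Members and lists were chosen with earlier results of these data known. Values for each mouse are given for members past the test in the epithelium, those of largest change in each role and well-known members. Of the other G2 and M genes, up to 4 of largest change past the test are named in a comparison. Promoter windows came from RefSeq (GRCm38.p6). Alternatives covered scaling, filter, pseudocount, cell minimum, a replicate block, left-out mice and cells, equal weights on the types with at least 5 cells in each mouse compared, a term for the long-transcript libraries, and voom on recovered UMI sums. Shares of all genes called are given for the main fits only. The joined TA class, the merged type weights, the epithelium without TA cells, type levels with mice weighted equally, and myeloid cells without ActNeutrophil were added after seeing the data.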

Additional observations from a re-analysis of the deposited data

Results flagged for a closer look

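Of 93 groups of mice tested for a mouse apart from the rest, 6 held one, and chance gives about 1 in 20. Mki67 in epithelial cells was 4.04 normalized UMIs per cell in SZN-1326-p mouse 1 of 24 h, against 1.03 to 1.82 in the other SZN-1326-p mice. Mki67 in TA cells was 6.75 in the same mouse, against 3.17 to 4.27 in the others. Cks2 in epithelial cells was 0.696 in that mouse, below 1.04 to 1.21 in the others. Aurkb in TA cells was 0.593 in SZN-1326-p mouse 3 of 48 h, above 0.271 to 0.369 in the others. The share of TA cells with UMIs of 3 or more members was 83.1% in that mouse, above 62.4% to 69.8% in the other SZN-1326-p mice. The same share was 68.8% in anti-GFP mouse 2 of 48 h, above 37.5% to 45.1% in the other anti-GFP mice.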

How the results depend on the processing

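The fall of members with DSS in TA1 and TA2 joined held under every alternative run of that class (31 to 39 of 43, and 29 to 39 with 1 mouse left out). It was not seen in TA1 alone, as given below for progenitors. Counts in this section carry no share of all genes called under the same setting. For SZN-1326-p, the count of members that rose in the epithelium at 24 h (19) was 0 with fixed weights on 9 types, 0 with TA1 and TA2 merged in those weights, 2 without TA cells, 0 in a fit of the compared groups alone, 10 without the filter, 31 by voom, 35 from mean log2 values, 32 with the library term, 9 without mixed cells and 4 without the 2 mice of high mitochondrial share. At 48 h (12) it was 3 with fixed weights, 2 (and 1 lower) without TA cells, 7 without the filter, 20 without mixed cells and 3 without those mice. In TA cells at 48 h (5) it was 1 by voom, 1 without the filter, 1 with at least 50 cells, 18 with the library term and 0 without those mice, and over both times (15) it was 7 by voom, 7 without the filter, 5 with at least 50 cells and 0 without those mice. With DSS in the epithelium (1 higher, 0 lower) it was 2 and 1 by voom, 3 and 2 with the library term, 0 higher with fixed weights, and 0 and 3 with merged weights. In progenitors at 24 h and with DSS the weights left 1 type, TA1 alone or TA1 and TA2 merged, so those fits hold no weighted progenitor class. The fall with DSS (8) was 0 in TA1 alone, 31 in TA1 and TA2 merged, 13 with the library term, 1 from mean log2 values, 3 without the filter, 4 in the compared groups alone, 4 without mixed cells and 3 without those mice. Their rise at 24 h (1) was 0 in either of these, by voom, without the filter, in the compared groups alone, without mixed cells and without those mice, and 2 with the library term, and at 48 h (2) it was 0 with fixed weights on 3 types, by voom, without the filter and without those mice, and 11 with the library term. In fibroblasts, Birc5 (1) went to 0 from mean log2 values, without the filter, with a pseudocount of 0.1, without mixed cells and without those mice, and to 2 members with the library term. The fall with DSS (2) was 0 from mean log2 values, without the filter and in the compared groups alone, 1 with a pseudocount of 0.1 and without those mice, and 1 (with 2 higher) without mixed cells. AltEnteroPC (0) had 1 by voom, from mean log2 values, with at least 50 cells and with the library term, 2 in the compared groups alone and 5 without mixed cells, and T lymphoid cells (0) had 1 by voom. Directions reversed with fixed weights for Tpx2 in the epithelium at 24 h (-0.10) and with merged weights for Kif23 with DSS (-0.11). In progenitors with DSS, TA1 alone gave 0.54 for Cdk1, 2.02 for Ccnb2, 1.46 for Cks2 and 0.0022 for Cdca8, and the cause was not tested. With 1 mouse left out, counts of members that rose ran from 4 to 25 and 0 to 24 in the epithelium at 24 h and 48 h, 0 to 1, 0 to 13 and 2 to 24 in TA cells at 24 h, 48 h and over both times, 1 to 5 with DSS in the epithelium (0 to 2 lower), 0 to 8 and 0 to 6 in progenitors at 24 h and 48 h (1 to 13 lower with DSS), 0 to 3 in fibroblasts (0 to 2 lower with DSS), 0 to 2 in myeloid cells and 0 to 2 in AltEnteroPC. The log2 ratio of the share of cells with 3 or more members, SZN-1326-p over anti-GFP at 24 h, was 1.08, 1.10, 1.04 and 0.71 in the epithelium for 2 members, 5 members, 1000 UMIs and no thinning, and 0.50, 0.56, 0.41 and 0.36 in TA cells. At 48 h it was 0.89, 0.72 and 0.25 in TA cells for 5 members, 1000 UMIs and no thinning, and anti-GFP over uninjured was -0.20 without thinning. Replicate numbers were not taken as pairs in the main fit: deviations of same-numbered SZN-1326-p and anti-GFP mice correlated at 0.385, -0.305 and 0.445 at 24 h and 0.134, 0.0659 and 0.315 at 48 h. With 3 mice per group these values cannot decide whether the numbers pair the mice. With the replicate block 9 members rose in TA cells at 48 h, 3 rose and 1 fell with DSS in the epithelium, and 2 rose in fibroblasts. Of named genes under the other settings, 925 values kept their call, 289 lost it and 6 reversed. T lymphoid cells were not refitted with at least 50 cells, without mixed cells or for TcellCD8_NK alone. Low levels outside TA cells limit depth: 18 of 43 genes could be tested in fibroblasts.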
